A study of Homo sapiens with 20 samples.

Results

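The 10 genes described here encode the kinases and ubiquitin ligases that stand upstream of NF-kB. They are MAP3K14 (the kinase NIK), TRAF1, TRAF2 and TRAF3 (adaptors of tumor necrosis factor receptors), BIRC2 and BIRC3 (the ligases cIAP1 and cIAP2), and CHUK, IKBKB, IKBKG and IKBKE (IKK alpha, IKK beta, the regulatory subunit NEMO, and IKK epsilon). They were picked by name, and all 10 were found among the 54261 features of the deposited gene count table and passed the filter on low counts. The samples were TPC-1 cells, a line from a human papillary thyroid carcinoma. The coculture group held 6 RNA-seq libraries of TPC-1 cells kept for 48 h with PMN-MDSCs, myeloid suppressor cells that resemble neutrophils, and the control group held 4 libraries of untreated TPC-1 cells. Small RNA of the same groups was sequenced in another 6 and 4 libraries. The sources used here do not give how the cells were brought together, where the PMN-MDSCs came from or whether they were removed again. Separate cultures are not stated for the libraries of a group either. The p-values therefore measure only the spread between these libraries, which may be technical.

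In resting cells, a complex of TRAF2, TRAF3 and cIAP1 or cIAP2 marks newly made NIK for destruction, so that NIK protein stays scarce while its mRNA is made. When receptors such as LTBR, CD40 or TNFRSF12A draw the complex away, NIK accumulates and activates IKK alpha, which drives processing of p100 (NFKB2) to p52, the partner of RELB. In the canonical pathway, cIAPs attach ubiquitin chains at the tumor necrosis factor receptor, and the complex of IKK alpha, IKK beta and NEMO then releases RELA and NFKB1 from IkB proteins. IKK epsilon is a related kinase that can be induced by inflammatory signals. NIK and its regulators act mostly through protein stability, which mRNA counts do not show.

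RNA-seq totals ran from 40237801 to 48197608 counts. The thyroid transcription factor PAX8 was at 508 ± 11.2 CPM (counts scaled to a common library total; SD, n = 4) in the controls and the keratins KRT8 and KRT18 at 240 ± 28.6 and 350 ± 43.9 CPM. Thyroglobulin (TG) was below 1 CPM on average in the controls, and CDH1 and NKX2-1 had 0 control counts. Of 25 leukocyte markers, the 22 with a control mean under 1 CPM summed to 0.726 to 1.53 CPM in the controls and 18.2 to 36.3 CPM in coculture. The low control sum follows from how these 22 were picked. All 25 summed to 142 to 165 CPM in the controls and 170 to 229 CPM in coculture. Of the neutrophil and myeloid genes in that list, FCGR3B, ELANE and CXCR2 had 0 counts in every library and CEACAM8 had 1 count in all. S100A8 had 53 counts in coculture and 0 in controls, S100A9 235 and 1, CSF3R 11 and 0, MPO 10 and 0, and ITGAM 297 and 3. CD14 had 741 counts in coculture and 15 in controls, CSF1R 709 and 87, and SPI1 494 and 45. LYZ, lysozyme, led the rest at 13.9 ± 2.17 CPM in coculture. In bulk RNA, fewer cells of a type and less RNA per cell cannot be told apart. Coculture libraries 1 and 2 stood apart on the first principal component of all genes, which held 39.3% of the variance, at -66.1 and -60.6 against 0.908 to 31.8 for the other 8 libraries. Results are therefore also given without them where that changes a call.

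The 200 bases below lie from 250 to 51 bases upstream of the RefSeq start of BIRC3 and of the outermost RefSeq start of TRAF1. These genes are shown because they rose in coculture. The 30 bases of TRAF3 are shown because they hold the other match found. Capitals mark matches to the kappa-B consensus, the 10-base element bound by NF-kB dimers, searched on both strands. The windows are chr11:102317234-102317433 (plus strand) for BIRC3, chr9:120929222-120929421 (minus strand) for TRAF1 and chr14:102777406-102777435 (plus strand) for TRAF3, on build GRCh38.p14.
BIRC3: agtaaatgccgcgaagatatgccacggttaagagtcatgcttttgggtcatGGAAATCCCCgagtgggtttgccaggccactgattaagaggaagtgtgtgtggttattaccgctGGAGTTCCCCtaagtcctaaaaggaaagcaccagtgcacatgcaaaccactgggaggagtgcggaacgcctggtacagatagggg
TRAF1: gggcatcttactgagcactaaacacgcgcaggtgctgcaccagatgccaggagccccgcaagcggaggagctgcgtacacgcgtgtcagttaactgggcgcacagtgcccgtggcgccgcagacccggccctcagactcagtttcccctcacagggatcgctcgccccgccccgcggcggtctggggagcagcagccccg
TRAF3: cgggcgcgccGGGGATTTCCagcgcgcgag
RefSeq promoters were matched for 9 of the 10 genes, with 15 windows of 250 bases among them, since some genes have several starts. BIRC3 had 2 matches, which begin 199 and 135 bases upstream of its start, both on the minus strand. TRAF3 had 1 match, on the plus strand, which begins 33 bases upstream. The windows of the other matched genes, all 3 of TRAF1 included, held none. Of 35116 promoters in the RefSeq table, 5.21% held at least 1 match in such a window and 0.635% held 2 or more. A match is a description of letters in this window alone.

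BIRC3 and TRAF1 rose 3.09-fold and 2.95-fold in coculture, MAP3K14 was at 0.713 times its control level and just short of the threshold, and the other 7 genes did not pass the test. Across the 15629 genes tested with edgeR's quasi-likelihood test, 1.14% were called higher and 0.186% lower at an adjusted p under 0.05, 1.32% in all. Of the 10 genes here, 2 were called higher and 0 lower. At an unadjusted edgeR p under 0.05, 3 of the 10 were higher and 1 lower, beside 6.07% and 3.58% of all genes. By limma-voom 2 were called higher and 0 lower, beside 0.973% and 0.173%. DESeq2 called 2 of the 10 higher and 1 lower, beside 2.13% and 0.679% of all genes. Without coculture 1 and 2, edgeR called 2 higher and 1 lower, beside 1.37% and 0.732% of all genes. The median log2 fold change was 0.10 over the 10 genes and 0.0082 over all genes tested. Ranges of the groups without overlap, coculture above control, were found for 2 of the 10 genes and 2.45% of all genes. In the other direction it was 1 of the 10 and 1.17%.

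**Figure D1:**
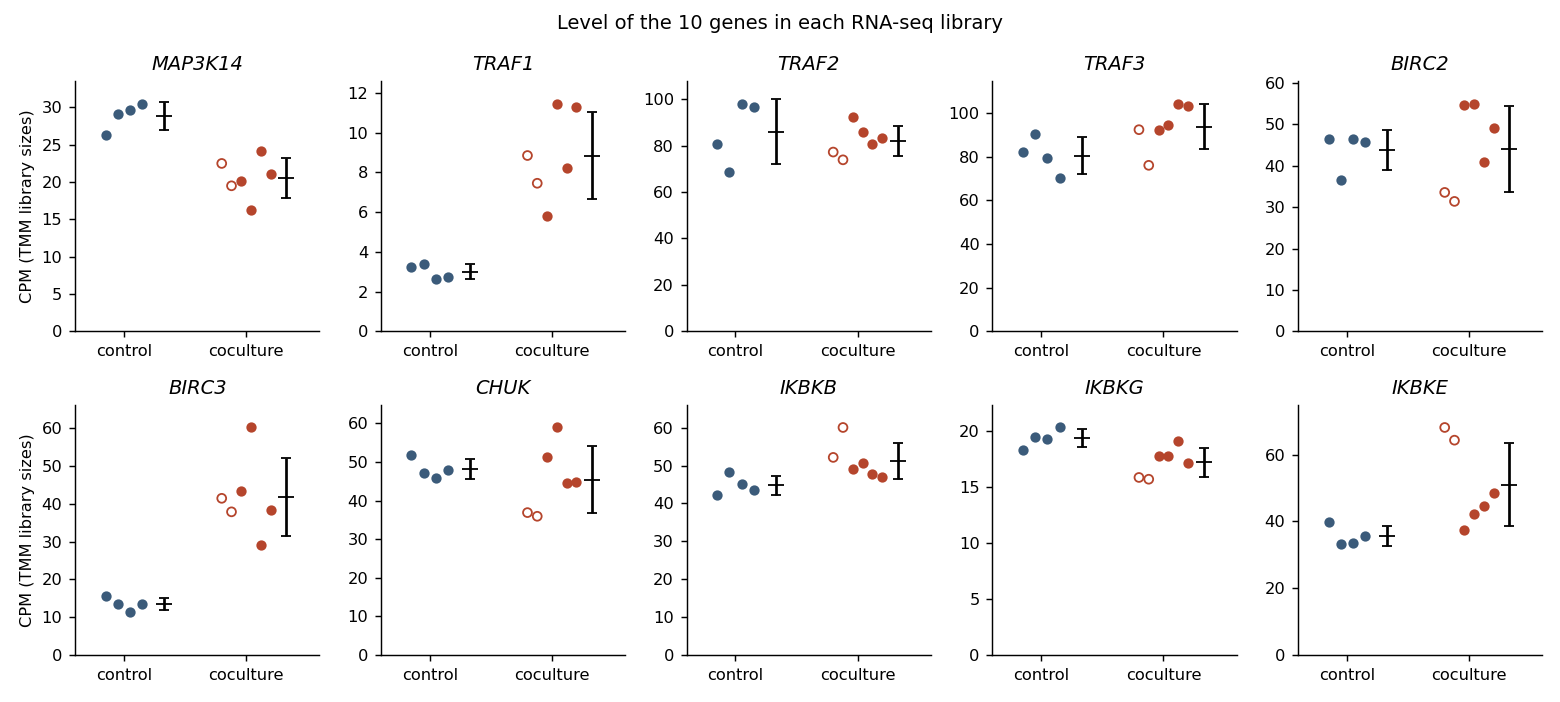
Each panel plots 1 gene, with CPM on the y axis from 0, blue points for the 4 control libraries and red points for the 6 coculture libraries (open circles are coculture 1 and 2), and black bars for mean ± SD. The groups of BIRC3, TRAF1 and MAP3K14 do not overlap, while the open circles lie outside the filled ones for BIRC2, CHUK, IKBKE and others.

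MAP3K14 encodes NIK, the kinase that starts the noncanonical pathway. The deposited table places it on the minus strand of chromosome 17, from base 45263119 to base 45317064 (build GRCh38.p10 per the submitters' processing notes). The controls 1 to 4 held 26.3, 29.1, 29.7 and 30.5 CPM of MAP3K14. The coculture libraries ran from 16.3 to 24.1 CPM with a median of 20.6. Each coculture library lay below each control. The log2 fold change was -0.49 ± 0.11 (SE; edgeR adjusted p = 0.0598). Over the alternatives the log2 fold change ran from -0.57 to -0.43 and the adjusted p from 0.00255 to 0.21. DESeq2 called MAP3K14 lower at an adjusted p of 0.00255, and edgeR called it lower without coculture 5 (adjusted p = 0.038) and without coculture 1 and 2 (0.0319). The antisense gene MAP3K14-AS1, whose reads cannot be separated without a stated strand setting, had 0 to 8 counts per library against 686 to 1350 for MAP3K14.

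Among the TRAFs, TRAF1 rose. TRAF1 lacks the RING domain of the other TRAFs, binds TRAF2 and is a known NF-kB target. Its coordinates are bases 120902393 to 120929173 of chromosome 9, minus strand. The controls 1 to 4 held 3.23, 3.39, 2.62 and 2.76 CPM. The coculture libraries ran from 5.79 to 11.5 CPM with a median of 8.54, all above the controls. Coculture 4 and 6 were the highest at 11.5 and 11.3 CPM, and coculture 3 was the lowest. The log2 fold change of TRAF1 was 1.56 ± 0.20 (edgeR adjusted p = 0.00145), and it remained called in all 16 alternatives.

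TRAF2, the RING adaptor that recruits the cIAPs, was at 82.2 ± 6.47 CPM in coculture (SD, n = 6) against 86.1 ± 14 in controls (n = 4). Its control libraries were themselves wide, from 68.6 to 98.1 CPM, and enclosed every coculture library. TRAF3, which holds NIK to the complex, was at 93.8 ± 10.2 CPM against 80.5 ± 8.35. The log2 fold change was -0.07 ± 0.11 for TRAF2 and 0.22 ± 0.10 for TRAF3, with edgeR adjusted p-values of 0.884 and 0.528. Of the 6 coculture libraries, 5 held between 92.3 and 104 CPM of TRAF3, above the highest control of 90.3, and coculture 2 lay at 76 CPM.

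BIRC3, which encodes cIAP2, a known NF-kB target, rose. BIRC2, which encodes cIAP1, lies next to it on chromosome 11 with 7778 bases between them, and did not pass the test. In the deposited table BIRC3 runs from 102317450 to 102339403 and BIRC2 from 102347182 to 102378670, both on the plus strand. The controls 1 to 4 held 15.5, 13.4, 11.5 and 13.6 CPM of BIRC3. The coculture libraries ran from 29.2 to 60.2 CPM with a median of 39.9. The lowest coculture library, number 5, was still well above the highest control, and coculture 4 was the highest. The log2 fold change of BIRC3 was 1.63 ± 0.18 (edgeR adjusted p = 0.000576), and it remained called in all 16 alternatives.

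BIRC2 was at 44.1 ± 10.4 CPM in coculture against 43.8 ± 4.9 in controls, a log2 difference of 0.01 ± 0.17 (edgeR adjusted p = 0.988). Its coculture libraries fell on both sides of the controls. Coculture 1 and 2 held 33.6 and 31.4 CPM of BIRC2, below every control, and coculture 3, 4 and 6 held 49.2 to 55 CPM, above every control. The neighbouring genes are paralogs, and how the counting treated reads that fit both is not stated.

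None of the 4 IKK genes was called, and IKBKE had the largest difference among them. IKBKE, which encodes IKK epsilon, was at 50.9 ± 12.4 CPM in coculture against 35.5 ± 2.97 in controls, a log2 difference of 0.52 ± 0.16 (edgeR adjusted p = 0.246). The controls 1 to 4 held 39.7, 33.2, 33.5 and 35.6 CPM of IKBKE. Coculture 1 and 2 held 68.1 and 64.3 CPM and coculture 3 to 6 held 37.6, 42.3, 44.6 and 48.6. Coculture 3 lay within the control range and the other 5 above it. Without coculture 1 and 2 the log2 fold change of IKBKE was 0.27 ± 0.10 (edgeR adjusted p = 0.216).

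CHUK, the catalytic subunit on which p100 processing depends, was at 45.4 ± 8.74 CPM in coculture against 48.1 ± 2.61, and its log2 fold change was -0.08 ± 0.13. IKBKB, the main kinase of IkB alpha, was at 51.2 ± 4.75 CPM against 44.8 ± 2.57, with 0.19 ± 0.09. IKBKG, the scaffold that binds ubiquitin chains, was at 17.2 ± 1.29 CPM against 19.3 ± 0.811, with -0.17 ± 0.09. Their edgeR adjusted p-values were 0.88, 0.521 and 0.6. The pseudogene IKBKGP1 had 8 to 48 counts per library against 691 to 899 for IKBKG, and reads shared with it are uncertain.

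Coculture 1 and 2 lay above the range of coculture 3 to 6 for 2 of the 10 genes and below it for 4. Of all genes tested 30.5% lay above and 29.9% below, so the count is near that of genes in general. They were higher for IKBKE, 1.53 times coculture 3 to 6 by mean CPM, and for IKBKB, 1.15 times. They were lower for BIRC2, CHUK, IKBKG and TRAF2, at 0.65, 0.729, 0.879 and 0.884 times. For BIRC3, TRAF1, MAP3K14 and TRAF3 they fell within the range of coculture 3 to 6 or overlapped it. The labels name no difference between these libraries, and this split was made from the data, so it is a description with no test.

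**Figure D2:**
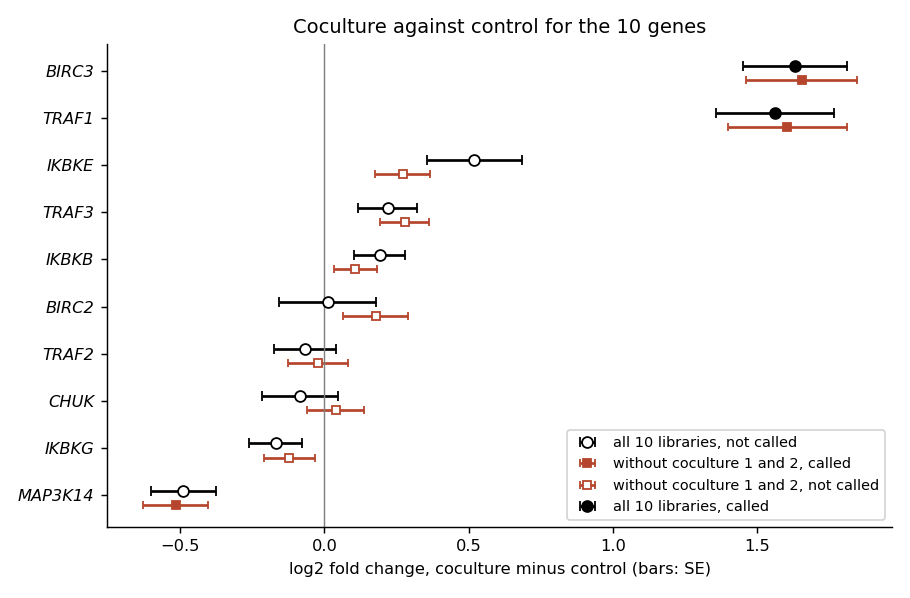
Log2 fold changes of coculture minus control from edgeR with SE bars, for all 10 libraries (black circles) and without coculture 1 and 2 (red squares), filled where the adjusted p was under 0.05. BIRC3 and TRAF1 lie near 1.6 in both, MAP3K14 near -0.5 in both and filled only without coculture 1 and 2, and IKBKE moves from 0.52 to 0.27.

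Levels were compared between genes as CPM per kb of the length given in the deposited table. In the controls TRAF2 was the highest at 23.3 ± 3.81 CPM per kb, apart from all others. BIRC2, IKBKB, CHUK and IKBKE followed between 10.2 and 10.7 CPM per kb, each with a range overlapping the next. IKBKG at 8.56 ± 0.359 and TRAF3 at 8.31 ± 0.862 CPM per kb also overlapped. MAP3K14 at 6.19 ± 0.394, BIRC3 at 1.95 ± 0.239 and TRAF1 at 0.673 ± 0.0825 CPM per kb came last, each below the range of the gene before it.

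In coculture the level per length of TRAF2 was again the highest, at 22.3 ± 1.75 CPM per kb, and that of TRAF1 the lowest, at 1.99 ± 0.497. BIRC3 at 6.04 ± 1.49 CPM per kb now stood above MAP3K14 at 4.41 ± 0.576 by mean, although the ranges of these genes overlapped. The highest mean level was 34.6 times the lowest in controls and 11.2 times in coculture. Of the 9 pairs of neighbours in the order, 4 overlapped in controls and 7 in coculture. Ranges widen with the number of libraries, which was larger in coculture, so these counts cannot be compared between the groups.

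**Figure D3:**
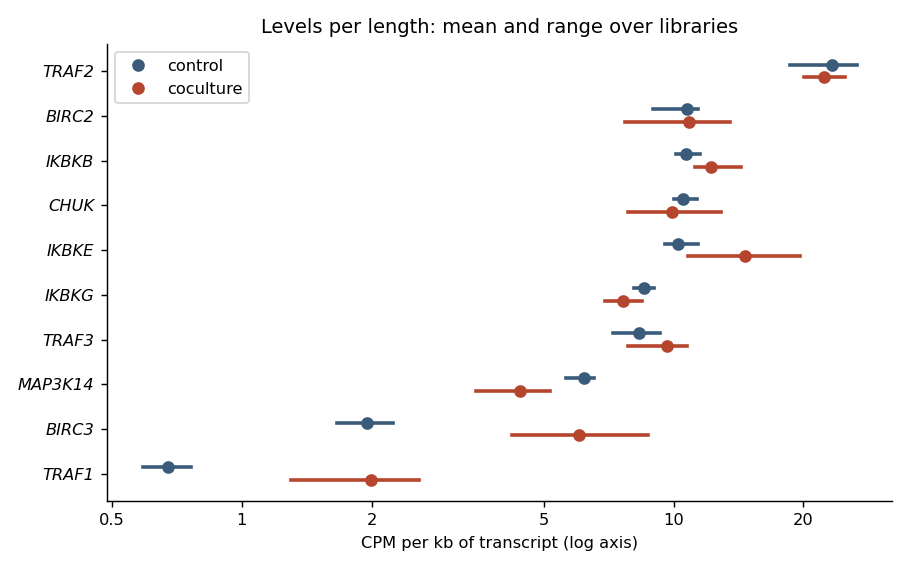
Mean (point) and range over libraries (line) of CPM per kb on a log axis, for the 4 control (blue) and 6 coculture (red) libraries, with genes in the order of their control means. TRAF2 leads in both groups, and BIRC3 and TRAF1 are the genes whose red line lies wholly to the right of the blue one.

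Ratios of genes that work as partners were taken within each library, so they need no library normalization. There were 4 such ratios of counts per kb, tested with a two-sided exact permutation test over all 210 assignments of the group labels, where the smallest p possible is 0.00476. Adjusted p-values are Benjamini-Hochberg values over the 4 ratios. The pairs were chosen with the changes of BIRC3, MAP3K14 and other genes already known, so they restate those changes against a partner gene. Their exact p-values therefore add no support to the tests of the single genes, in which edgeR did not call MAP3K14.

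The ratio of BIRC3 to BIRC2 shifted by 1.62 on the log2 scale (exact permutation p = 0.00476, adjusted 0.00635). BIRC3 made up 15.5% ± 2.19 (SD, n = 4) of the per-length counts of both cIAP genes in controls and 36% ± 5.6 (n = 6) in coculture. The controls 1 to 4 held shares of 16.4%, 17.8%, 12.7% and 14.9%, and the coculture libraries 29.6% to 42.1%. Coculture 1 and 2 had the highest BIRC3 shares, 42.1% and 41.6%. These are the libraries in which BIRC2 was lowest.

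The ratio of TRAF1 to TRAF2 shifted by 1.58 (exact permutation p = 0.00476, adjusted 0.00635). TRAF1 made up 2.91% ± 0.828 of both in controls and 8.22% ± 1.9 in coculture, so TRAF2 remained the main transcript of the pair in every library. The ratio of MAP3K14 to TRAF3 shifted by -0.71 with the same exact permutation p and adjusted value. MAP3K14 made up 42.8% ± 3.57 of that pair in controls, from 39.9% to 47.5%, and 31.4% ± 3 in coculture, from 26.4% to 34.8%. For these 3 ratios the coculture and control libraries did not overlap. Each holds a gene whose own CPM ranges were already apart (BIRC3, TRAF1 or MAP3K14), so this is no further result.

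The ratio of CHUK to IKBKB differed by -0.29, within the spread of the libraries (exact permutation p = 0.181, adjusted 0.181). It was -0.18 without coculture 2 and -0.077 without coculture 1 and 2. CHUK made up 49.6% ± 2.5 of the per-length counts of both kinases in controls and 44.6% ± 6.09 in coculture. Coculture 1 and 2, with 39.3% and 35.4%, were the lowest, and coculture 3 to 6 lay between 46% and 51.6%, beside controls from 47.2% to 52.9%.

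**Figure D4:**
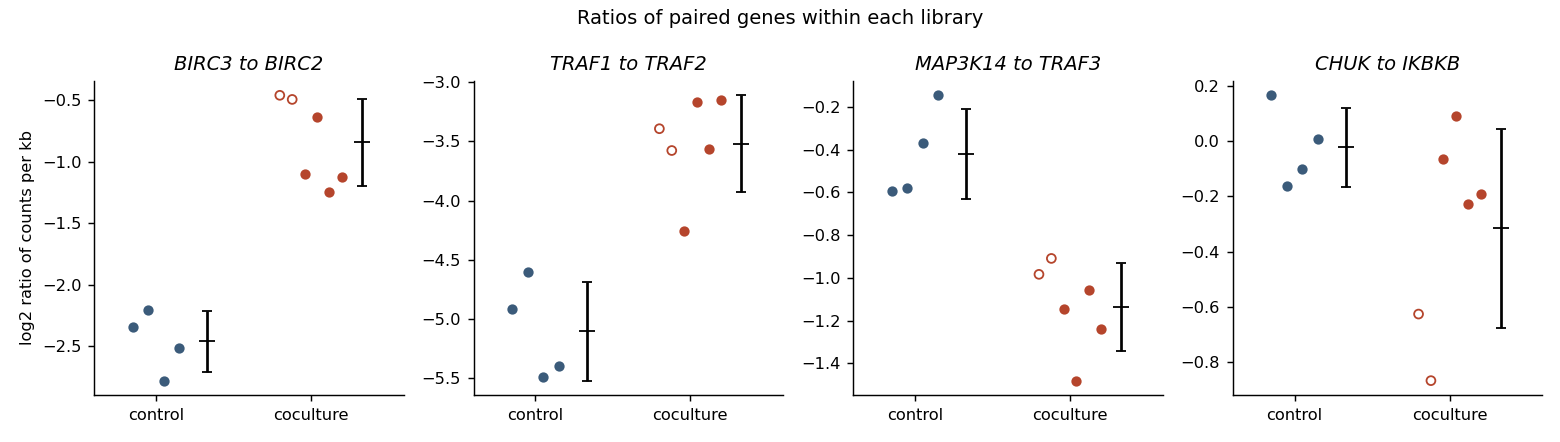
Log2 ratios of counts per kb within each library for 4 gene pairs, with control libraries in blue, coculture libraries in red (open circles are coculture 1 and 2) and black bars for mean ± SD. The groups are apart for the first 3 ratios, and for CHUK to IKBKB the open circles lie below all other libraries.

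The genes also varied among themselves within the coculture group. BIRC3 was highest and MAP3K14 lowest in coculture 4, at 60.2 and 16.3 CPM. In coculture 5 BIRC3 was lowest and MAP3K14 highest, at 29.2 and 24.1 CPM. Pearson's correlation of log2 CPM between BIRC3 and MAP3K14 was -0.89 over the 6 coculture libraries and -0.95 over all 10, where the difference between groups contributes. BIRC2 and CHUK went together over the 6 coculture libraries, with a correlation of 0.94. Coculture 1 and 2 were lowest for both. Among the 45 pairs of the 10 genes, 3 were more strongly negative over the 6 libraries, namely TRAF3 with IKBKB (-0.97), TRAF2 with IKBKE (-0.91) and BIRC2 with IKBKE (-0.91). These correlations are descriptions over few libraries that share depth and treatment.

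By the highest Pearson correlation of log2 CPM over the 10 libraries, among 10294 genes outside the lists with a mean of at least 5 CPM, the patterns most like BIRC3 were those of CXCL8 (0.976), LCP1 (0.967) and SOD2 (0.946). CXCL8 is a chemokine for neutrophils, LCP1 an actin-bundling protein of leukocytes and many tumor lines, and SOD2 the mitochondrial superoxide dismutase. The patterns most like TRAF1 were those of TFPI2, a protease inhibitor of the matrix (0.987), ZC3H12A, the RNase regnase-1 that degrades inflammatory mRNAs (0.985), and NRROS (0.982). The patterns most like MAP3K14 were those of PLPP4, a lipid phosphatase (0.979), ANGPTL2, a secreted angiopoietin-like protein (0.967), and SERINC2 (0.966). PLPP4 was at 9.81 CPM in coculture against 22.8 in controls, and SERINC2 at 63 against 118. ANGPTL2 was at 7.54 CPM against 12.3 and was not called (edgeR adjusted p = 0.0833). The libraries share the difference between groups in each of these correlations.

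Leukocyte markers rose in the same libraries as BIRC3 and TRAF1. Of the 12 tested, edgeR called 10 higher, beside 1.14% of all genes, 0 lower and 2 in neither direction. The other 13 of the 25 had too few counts to test. Tested markers close to 0 in controls passed the filter by their coculture counts alone, so the count of 10 carries no weight. LAPTM5, the most abundant, was at 141 ± 16.3 CPM against 142 ± 9.94 and so equally present in untreated TPC-1 cells. ITGB2, a leukocyte integrin chain, rose from 1.5 ± 0.263 to 11.2 ± 2.53 CPM. Coculture 2, with the lowest sum of the 22 markers scarce in controls at 18.2 CPM, held 37.9 CPM of BIRC3 and 7.45 of TRAF1. Coculture 6, with the highest sum at 36.3 CPM, held 38.4 of BIRC3 and 11.3 of TRAF1. Coculture 4, highest in BIRC3 and TRAF1 at 60.2 and 11.5 CPM, had a sum of 27.9 CPM. It held 1.16 CPM of MS4A1 and 1.02 of CD79A, both B cell genes, against at most 0.0253 and 0.161 in any other library. BIRC3 and TRAF1 are also expressed in leukocytes, and the part of PMN-MDSC RNA in their rise was not tested.

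The other genes of the pathway were read from lists of partners, of which all genes were found in the table. Beside the counts called in these lists, edgeR called 1.14% of all genes higher and 0.186% lower. The other TRAFs and TRAF adaptors had 0 of 9 tested genes called by edgeR, DESeq2 or limma-voom. At an unadjusted edgeR p under 0.05, 2 of the 9 were higher, beside the 6.07% of all genes given above, and the median log2 fold change was 0.0038. TRAF7, the most abundant per length at 41.3 CPM per kb in controls, was at 155 ± 25.2 CPM in coculture against 153 ± 5.54. The other IAPs and their antagonists had 0 of 6 called by edgeR, DESeq2 or limma-voom, with 1 lower at an unadjusted edgeR p under 0.05, beside 3.58% of all genes, and a median of -0.06. BIRC5 (survivin), the mitotic IAP and the most abundant of that list per length, was at 145 ± 25.3 CPM against 156 ± 13.5.

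A list of 13 kinases and ligases linked to IKK held TAK1 with its TAB partners and the linear ubiquitin ligase complex, among others. Of the 13, 1 was higher, 0 lower and 12 not called, with a median of 0.04. The higher gene was MAP3K8 (TPL2), the kinase that p105 holds in check, which rose from 2.71 ± 0.807 to 5.54 ± 0.307 CPM (log2 fold change 1.03 ± 0.18, edgeR adjusted p = 0.0137). Its adjusted p was 0.0652 without control 1 and 0.0633 without control 4. Of 8 tested deubiquitinases and other restraints, 2 were higher, 0 lower and 6 not called, with a median of 0.0029. TNFAIP3 (A20), a ubiquitin editor that curbs IKK, rose from 4.35 ± 2.31 to 23.9 ± 10.2 CPM (2.46 ± 0.36, edgeR adjusted p = 0.00352). Its partner TNIP1 rose from 131 ± 3.81 to 293 ± 62.1 CPM (1.16 ± 0.15, edgeR adjusted p = 0.00132). OTUD7B and CYLD, deubiquitinases of TRAF3 and of the canonical pathway, were at 62.1 and 19.2 CPM in coculture against 68.1 and 18.7, neither called.

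Among receptors and ligands that recruit the TRAF-cIAP complex, 3 of 10 tested genes rose, 0 fell and 7 were not called, with a median of -0.0006. TNFRSF9 (4-1BB), a receptor that binds TRAF1 and TRAF2, rose from 6.67 ± 2.99 to 30.7 ± 7.98 CPM (2.20 ± 0.29, edgeR adjusted p = 0.00152). TNFRSF1B, the receptor TNFR2, rose from 0.847 ± 0.252 to 4.29 ± 1.55 CPM (2.33 ± 0.30, edgeR adjusted p = 0.00127). The part of PMN-MDSC RNA in this rise, and in the other rises of the partner lists, was not tested. The ligand TNFSF14 (LIGHT) had 6 counts over the 4 controls and 0.849 ± 0.593 CPM in coculture (edgeR adjusted p = 0.0174), and its adjusted p was 0.0711 to 0.0796 without control 1, 3 or 4. It passed the filter on low counts by its coculture counts alone, so its place in the count of 3 carries no weight. The other receptors tested in this list were not called, whether abundant or scarce. LTBR was at 194 CPM against 202, TNFRSF12A at 332 against 350, CD40 at 84.4 against 68.8 and TNFRSF11A (RANK) at 66.4 against 78.8. TNFRSF13C (BAFF receptor) was at 0.909 CPM against 1.04. The ligands TNF, LTB, TNFSF11 and CD40LG had 0 counts in every library.

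Of 8 NF-kB subunits and IkB genes, 4 rose, 0 fell and 4 were not called, with a median of 0.77. DESeq2 called 5 of the 8 higher. RELB rose by 1.19 ± 0.10 and NFKB2 by 1.004 ± 0.16 in log2 units, at edgeR adjusted p-values of 8.44e-05 and 0.00548. Their proteins form the dimer downstream of NIK and IKK alpha. NFKBIA (IkB alpha), an early target that ends canonical signaling, rose from 37.6 ± 11.5 to 120 ± 31.8 CPM (edgeR adjusted p = 0.00145). NFKBIE rose from 19.4 ± 1.47 to 28.2 ± 3.4 CPM (edgeR adjusted p = 0.0307). That call was lost without coculture 1, 2 or 4 and without each of the 4 controls in turn, with adjusted p up to 0.116. RELA was at 99.4 CPM against 93.7, not called. NFKB1 was at 111 ± 10.2 CPM against 87.5 ± 2.58 and was not called either (edgeR adjusted p = 0.0887). Each coculture library held more NFKB1 than each control, as was the case for 2.45% of all genes tested.

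**Figure D5:**
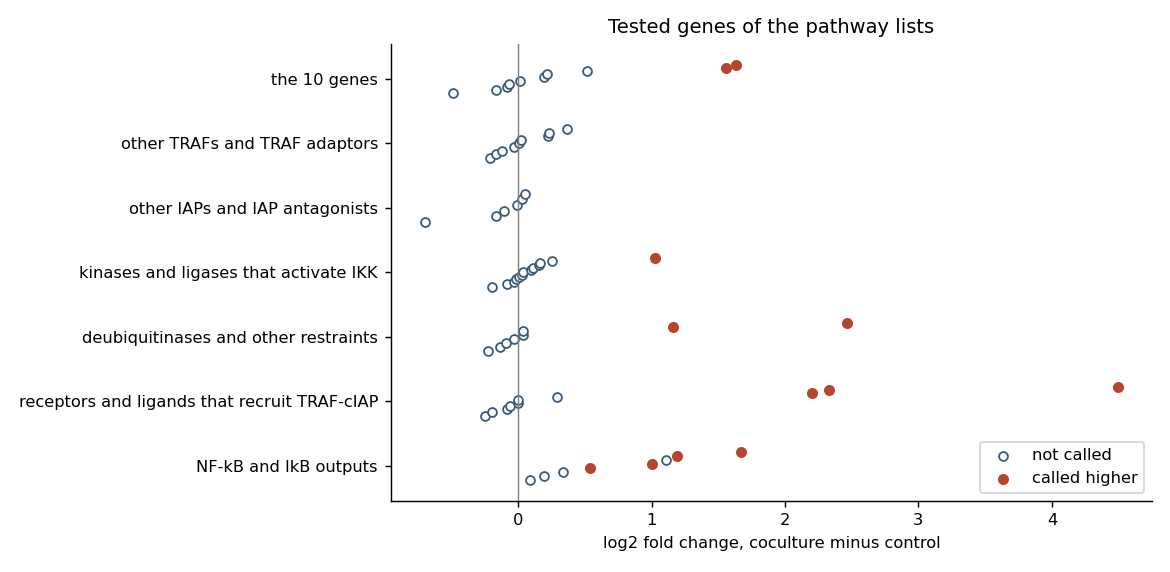
Each point is a tested gene, placed by its log2 fold change of coculture minus control, in rows for the 10 genes and 6 lists of pathway partners, with red points called higher by edgeR and open points not called. No gene of these rows was called lower, and the row of NF-kB and IkB genes is the only one whose points all lie to the right of 0.

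In the miRNA libraries, 8 miRNAs were read, among them some that earlier work described as binding transcripts of these genes. These are miR-223-3p, miR-15a-5p and miR-16-5p for CHUK, miR-31-5p for MAP3K14 and miR-155-5p for IKBKE. Their deposited sequences are shown with the seed, bases 2 to 8, in capitals, because miR-15a-5p and miR-16-5p share a seed and the others do not.
hsa-miR-223-3p: tGTCAGTTtgtcaaatacccca
hsa-miR-15a-5p: tAGCAGCAcataatggtttgtg
hsa-miR-16-5p: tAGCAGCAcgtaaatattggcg
hsa-miR-31-5p: aGGCAAGAtgctggcatagct
hsa-miR-155-5p: tTAATGCTaatcgtgataggggtt
Of all 797 miRNAs tested with edgeR, 1.13% were called higher and 0.125% lower, 1.25% in all. DESeq2 called 1.71% higher and 0.395% lower, and limma-voom 1.25% and 0%. Ranges without overlap were found for 1.88% of miRNAs with coculture above control and 1.38% with coculture below, and for 0 of the 8. None of the 8 was called by edgeR, DESeq2 or limma-voom. At an unadjusted edgeR p under 0.05, 1 of the 8 was higher and 0 lower, beside 4.02% and 7.4% of all miRNAs.

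Among the miRNAs, miR-155-5p was at 3110 ± 393 CPM in coculture (SD, n = 6) against 2293 ± 571 in controls (n = 4), with overlapping ranges and an edgeR adjusted p of 0.32. The miRNA miR-31-5p was at 2548 ± 283 CPM against 2330 ± 181, and miR-31-3p, from the other arm, at 104 ± 20.5 against 111 ± 12. For miR-16-5p the levels were 1514 ± 171 against 1514 ± 410, and for miR-15a-5p 68.8 ± 7.65 against 86.2 ± 28.9. The library labelled control 4 was the highest control for both, at 1873 and 128 CPM. The other controls ran from 937 to 1721 and from 61.9 to 80.6 CPM. It was also the highest control for miR-199b-3p, at 13.3 CPM against 3.37 to 5.37. The scarcer miR-199a-3p and miR-199b-3p, which have the same deposited sequence, were at 12.3 ± 3.87 against 14 ± 8.56 and 7.28 ± 1.42 against 6.74 ± 4.46 CPM, and their counts cannot be separated.

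The myeloid miRNA miR-223-3p was at 34.9 to 82.3 CPM in the coculture libraries. The miRNA libraries labelled control 1, 2 and 3 held 3.14 to 3.18 CPM and the one labelled control 4 held 54 CPM, within the coculture range. The log2 fold change of miR-223-3p was 1.76 ± 0.88 (edgeR adjusted p = 0.506) with all libraries and 4.12 ± 0.36 (adjusted p = 5.83e-05) without control 4. The labels do not say that RNA-seq and miRNA libraries of the same number share a culture. In RNA-seq control 4 the 22 leukocyte markers scarce in controls summed to 1.51 CPM, within the 0.726 to 1.53 CPM of the other controls. CSF1R and SPI1 made up 0.655 and 0.316 CPM of that sum. LYZ, with 15 counts over all controls, was at 0.203 CPM in control 4 and 0.0427 to 0.0494 in the others. CD14 was at 0.0904 CPM in control 4, within the 0.0243 to 0.124 of the others.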

How the data were processed

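The authors deposited raw read counts per gene symbol and per mature miRNA, per the file headers and the whole-number values. The submitters' processing notes name HISAT2 2.0.4, BWA and GRCh38.p10 without their roles. Counting tool, annotation and strand setting are not stated. The length column of the gene table, in bases per the file headers, served for levels per kb. No value column was unused (0).

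Counts were tested in R 4.3.3 with edgeR 4.0.16 (TMM, filterByExpr by group with a minimum count of 10, robust glmQLFit, glmQLFTest), separately for 15629 genes and 797 miRNAs. P-values were adjusted (Benjamini-Hochberg) across every tested feature of each assay, with a threshold of 0.05. The SE is the log2 fold change divided by the square root of F. CPM values use TMM library sizes. RNA-seq totals were 40237801 to 48197608 and miRNA-seq totals 3971608 to 5895539 counts. Ratios used counts plus 0.5 per kb. The code was tested on simulated counts. Alternatives were RLE normalization, no filter, DESeq2 1.42.0, limma-voom (limma 3.58.1), a replicate block and leaving out each library. Leaving out coculture 1 and 2 was chosen after seeing the data. Promoter and miRNA sequences are from RefSeq (GRCh38.p14) and the deposited miRNA table.

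The 10 genes and the lists were chosen with earlier results of these data known. Named are the 10 genes, up to 4 called genes of each partner list (or its most abundant per length), the 3 most abundant leukocyte markers, the 3 most similar genes of BIRC3, TRAF1 and MAP3K14, and the 8 miRNAs. OTUD7B, CYLD, LTBR, TNFRSF12A, CD40, TNFRSF11A, TNFRSF13C, RELA, the neutrophil and myeloid genes given by counts and genes with 0 counts were named after their values were seen. The same holds for NFKB1, MS4A1 and CD79A.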

Additional observations from a re-analysis of the deposited data

Results flagged for a closer look

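Of 44 sets of values checked for a library far from its group, 3 held one, where chance gives about 1 in 20. RNA-seq control 2 held 36.5 CPM of BIRC2, and the other 3 controls lay between 45.7 and 46.5 CPM. Without it the log2 fold change of BIRC2 was -0.070 in place of 0.01, not called by edgeR in either case. The miRNA library labelled control 4 held 54 CPM of miR-223-3p, and the other 3 controls 3.14 to 3.18 CPM. The same library held 26.8 CPM of miR-199a-3p, and the other 3 controls 8.94 to 10.7 CPM.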

How the results depend on the processing

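BIRC3 and TRAF1 remained called higher in all 16 alternatives run, so the count of 2 higher genes among the 10 did not move. The count of lower genes among the 10, 0 in the reported fit, was 1 (MAP3K14) with DESeq2 and without coculture 1 and 2, and ranged from 0 to 1 on leaving out single libraries. Of all genes, 178 were higher and 29 lower. DESeq2 gave 333 and 106, the replicate block gave 100 and 10, and without coculture 1 and 2 there were 112 lower genes. Leaving out single libraries gave 112 to 204 higher and 4 to 36 lower genes, with the lowest counts without control 4, and 114 higher without control 3. Of miRNAs, 9 were higher and 1 lower. The count of lower miRNAs was 0 with RLE normalization, limma-voom and the replicate block, 4 with no filter and 3 with DESeq2, and leaving out single libraries gave 5 to 12 higher and 0 to 1 lower. The cause of these differences was not tested.

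Libraries of the same number did not deviate together in every pair (correlations of 0.35, -0.083, 0.20 and 0.14 for RNA-seq numbers 1 to 4, and 0.37, -0.034, 0.21 and 0.36 for miRNA), so the numbers were not taken as pairs. RNA-seq controls 1 and 3 and miRNA controls 1 and 4 correlated best with their own number, and the others did not. Under the replicate block on the 4 shared numbers the log2 ratios were 1.79 for BIRC3 to BIRC2, 1.501 for TRAF1 to TRAF2 and -0.71 for MAP3K14 to TRAF3, with an adjusted p of 0.167, where 4 pairs allow no exact p under 0.125. Leaving out single libraries gave 1.51 to 1.70, 1.45 to 1.75 and -0.77 to -0.62, and -0.37 to -0.18 for CHUK to IKBKB.

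Small differences changed sign. BIRC2 was at -0.0021 with no filter, -0.021 with limma-voom and -0.044 with the replicate block, and ran from -0.070 to 0.093 on leaving out single libraries. CHUK was at 0.040 without coculture 1 and 2. TRAF2 ran from -0.16 to 0.0036 and LAPTM5 from -0.073 to 0.030 on leaving out single libraries, and LAPTM5 was at 0.044 with the replicate block. For miR-16-5p the values were 0.051 with RLE normalization and DESeq2, 0.048 with the replicate block, 0.032 with no filter and 0.040 with limma-voom. Leaving out single libraries gave -0.16 to 0.16 for miR-16-5p, -0.35 to 0.37 for miR-199a-3p and -0.11 to 0.72 for miR-199b-3p. Over the 40 single genes and miRNAs followed through the alternatives, 579 of 632 recomputed values kept direction and call. Uncalled genes named from the partner lists, such as TRAF7, BIRC5, LTBR, RELA and NFKB1, were not among the 40. The replicate block ended the calls of NFKBIE, MAP3K8, TNFSF14, TNFAIP3, PLPP4 and NRROS, with adjusted p of 0.122, 0.111, 0.139, 0.0781, 0.0518 and 0.0872.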
